A study of Mus musculus with 12 samples.

Results

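Imprinted genes are expressed from only 1 parental copy in some or all tissues. A list of 35 imprinted mouse genes was followed here across adult ependymal cells, embryonic radial glia and cultured neurospheres, by taking each array probe whose platform symbol was a listed gene or its synonym. Of the 35 genes, 20 are paternally expressed, 11 are maternally expressed, and for 4 (Grb10, Gnas, Ube3a and Blcap) the expressed copy depends on the tissue or transcript. A named probe was present for 31 of them, and 22 passed the filter on dim probes and were tested, among 9525 genes tested of 17710 named on the array.

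The arrays were Illumina MouseWG-6 bead arrays hybridised with RNA from C57Bl/6 mice, with 3 independent biological replicates in each of 4 groups. Neurospheres were free-floating cultures grown from adult spinal cord ependymal cells and were not sorted. Ependymal cells were sorted from adult spinal cord (SC) and from the adult lateral ventricular wall (LVW) by gating on CD133+ and CD24+ events that lacked both CD45 and CD34. Radial glia were sorted from embryonic forebrain at day 14.5 by gating on CD133+ events that lacked CD24 as well as CD45 and CD34, so that the adult-to-embryo comparisons differ in age, in the CD24 gate and, for SC, in region. All values below are normalised log2 signals, given in the order of replicates, with a mean ± SD over 3 arrays for a group and a model standard error (SE) for a difference. Detection on an array means a detection p under 0.01, and a change was called at an adjusted p under 0.05 in a limma fit across all tested genes. Where a group with few or no detections is set against a brighter one without a bound, the difference includes arrays below detection and is not an exact size. The arrays measured the RNA of both parental copies together, so the values do not show from which copy a gene was read. In bulk samples, fewer cells of a type and less RNA per cell cannot be told apart.

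Imprints are DNA methylation marks set in 1 parent's germ line and kept through later divisions at control regions, often at the promoters of the genes they silence. Many paternally expressed genes promote fetal growth and many maternally expressed genes restrain it, and several of both kinds fall in expression after birth. In the mouse, the zinc finger protein ZFP57 binds a methylated hexamer at imprinted control regions and protects the mark there.

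The promoters of 5 members whose levels carry the results are shown with this hexamer in capitals, TGCCGC on the printed strand or GCGGCA for the other strand, which do not overlap each other. Where a gene has several annotated starts, the window with the most hexamers is shown. They run 5′ to 3′ along the gene, from 250 bases before to 50 after the start given by RefSeq (GRCm38.p6). Mest lies at chr6:30737800-30738099 on the plus strand (1 of 3 annotated starts), Nnat at chr2:157559828-157560127 on the plus strand, Nap1l5 at chr6:58907077-58907376 on the minus strand, Igf2 at chr7:142661222-142661521 on the minus strand (1 of 4 annotated starts) and Dlk1 at chr12:109452573-109452872 on the plus strand.
Mest: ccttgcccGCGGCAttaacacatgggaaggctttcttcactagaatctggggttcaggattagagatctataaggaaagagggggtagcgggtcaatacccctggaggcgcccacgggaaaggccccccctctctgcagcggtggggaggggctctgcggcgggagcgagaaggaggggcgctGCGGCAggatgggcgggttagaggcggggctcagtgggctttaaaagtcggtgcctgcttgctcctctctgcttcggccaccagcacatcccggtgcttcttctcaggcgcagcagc
Nnat: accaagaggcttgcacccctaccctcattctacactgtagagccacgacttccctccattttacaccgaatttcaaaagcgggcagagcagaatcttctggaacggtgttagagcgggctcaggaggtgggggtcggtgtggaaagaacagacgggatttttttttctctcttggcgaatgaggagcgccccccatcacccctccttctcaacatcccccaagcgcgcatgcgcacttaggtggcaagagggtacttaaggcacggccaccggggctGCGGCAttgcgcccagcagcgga
Nap1l5: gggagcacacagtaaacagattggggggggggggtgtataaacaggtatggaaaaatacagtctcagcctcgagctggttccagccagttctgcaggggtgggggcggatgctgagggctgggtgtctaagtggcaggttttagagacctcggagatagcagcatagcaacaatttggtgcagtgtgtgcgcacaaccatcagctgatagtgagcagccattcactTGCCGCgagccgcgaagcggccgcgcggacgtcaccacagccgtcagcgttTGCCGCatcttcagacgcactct
Igf2: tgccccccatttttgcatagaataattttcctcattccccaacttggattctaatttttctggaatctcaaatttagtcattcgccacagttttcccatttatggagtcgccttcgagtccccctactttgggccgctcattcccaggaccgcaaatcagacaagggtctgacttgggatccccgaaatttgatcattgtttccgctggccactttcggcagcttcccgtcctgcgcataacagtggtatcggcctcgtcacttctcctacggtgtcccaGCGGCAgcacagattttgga
Dlk1: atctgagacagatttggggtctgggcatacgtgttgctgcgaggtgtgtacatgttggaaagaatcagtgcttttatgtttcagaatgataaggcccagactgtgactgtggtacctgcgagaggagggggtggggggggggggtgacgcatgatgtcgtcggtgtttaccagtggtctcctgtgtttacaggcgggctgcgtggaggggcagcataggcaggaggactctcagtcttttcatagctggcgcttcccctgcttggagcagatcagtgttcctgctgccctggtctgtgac
The Mest and Nap1l5 windows hold the hexamer 2 times each, the Nnat and Igf2 windows once, and the Dlk1 window not at all. A second Mest start 3 bases away holds the same 2 hexamers, and the remaining Mest start and the other Igf2 starts hold none. RefSeq windows were found for 28 of the 35 members, and 10 of these members have at least 1 window with the hexamer: 7 of 16 paternally expressed, 2 of 8 maternally expressed and 1 of 4 others. Counted by gene, that is 35.7% of members, beside 13% of all 27024 genes with a window, though members have more windows per gene (1.61 against 1.22). The member windows are also richer in CpG, with a median of 14 against 7 in all windows. Taking only windows with at least 10 CpG, 9 of 24 members (37.5%) have one that holds the hexamer, and 24% of all genes do. A match to these letters is no evidence of binding, and the arrays did not measure methylation.

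Before the members, the arrays were checked against their labels. All 6 tested ependymal markers were higher in SC and in LVW cells than in radial glia, and all 6 were lower in neurospheres than in SC cells. Of 7 radial glial markers, 5 to 6 were detected per radial glia array, with Hes5 on all 3, Sox2 on 1 and Fabp7 on none. Against radial glia, 2 of these markers were higher and 2 lower in LVW cells, 1 higher and 2 lower in SC cells, and 2 higher and 2 lower in neurospheres. Slc1a3, a glutamate transporter gene of radial glia and astrocytes, was higher in neurospheres (2.6 ± 0.31), SC cells (1.29 ± 0.31) and LVW cells (2.02 ± 0.31). The radial glia arrays also carried every one of 8 pericyte and mural markers, and Ttr, the transthyretin gene of the choroid plexus, at 13.81, 13.8 and 13.9, while Ttr was not detected in neurospheres, SC or LVW cells. Detected probes numbered 11434 to 16175 on neurosphere arrays, 10742 to 12298 on SC arrays, 11660 to 12132 on LVW arrays and 12273 to 13487 on radial glia arrays. The correlation between arrays of a group was 0.869 to 0.973 for neurospheres, where replicate 3 stood apart, 0.92 to 0.946 for SC, 0.836 to 0.876 for LVW and 0.95 to 0.968 for radial glia. Per array, 14 to 16 of the 22 tested members were detected in neurospheres, 14 to 16 in SC cells, 11 to 14 in LVW cells and 20 in radial glia.

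**Figure D1:**
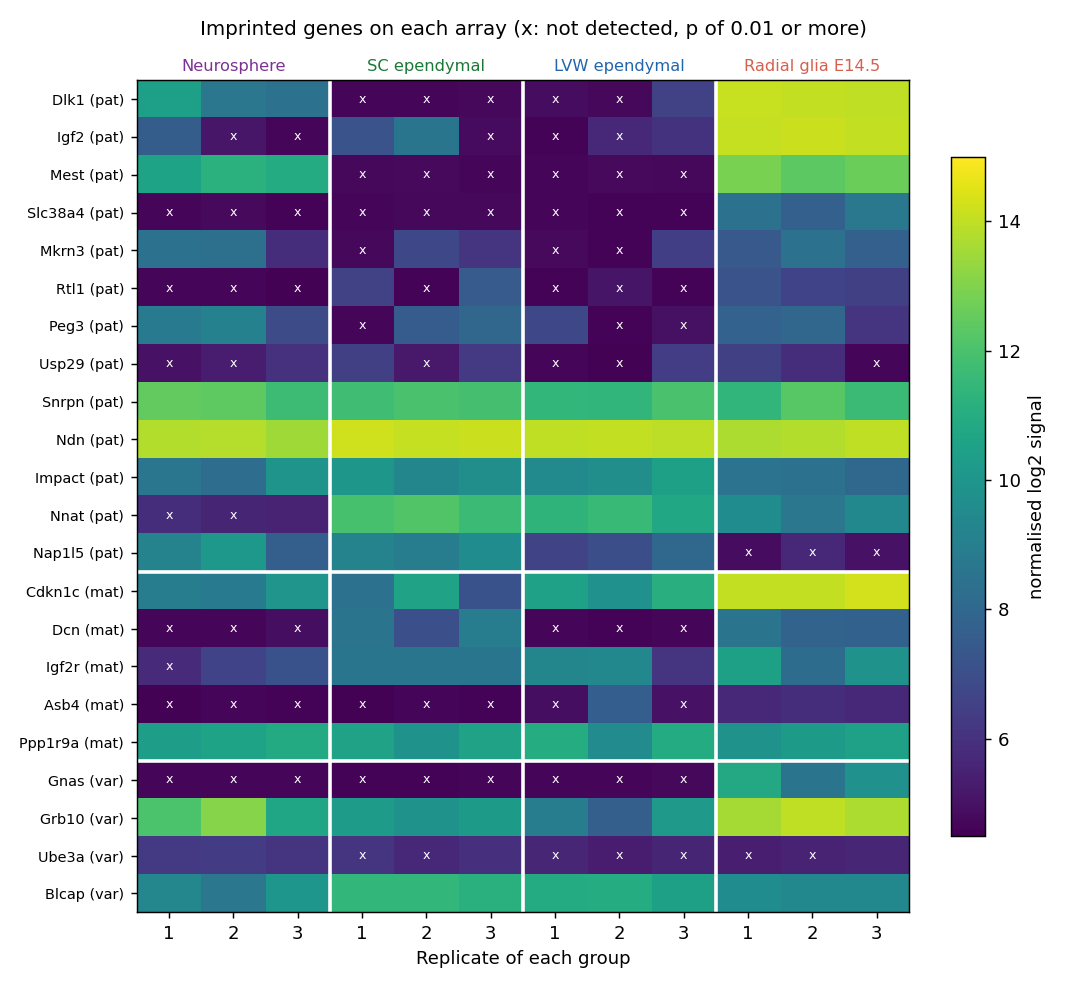
Normalised log2 signal of the 22 tested imprinted genes (rows) on the 12 arrays (columns, 3 per group, from neurospheres on the left to radial glia on the right), with marks for arrays without detection. Igf2, Dlk1, Mest and Cdkn1c are brightest in radial glia, and Nnat and Nap1l5 are brighter in SC cells than in radial glia.

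Adult ependymal cells of both regions had lower signals of Igf2, Dlk1, Mest, Slc38a4, Cdkn1c and Grb10 than embryonic radial glia, and higher signals of Nnat, Nap1l5 and Blcap. In LVW cells 14 of the 22 tested members were called against radial glia, when 36.5% of all tested genes were. Of these, 10 were lower (19.7% of all genes were) and 4 were higher (16.7% of all genes). In SC cells 11 members were called against radial glia, beside 31.8% of all genes, with 7 lower (17% of all genes) and 4 higher (14.8% of all genes). The median change over the tested members was -1.54 in LVW cells and -0.55 in SC cells, against -0.19 and -0.14 over all genes. These counts and medians cover only members that passed the filter. Slc38a4 and the bright Gnas probe, both counted as lower, passed it through the radial glia arrays alone. With median scaling the split became 2 higher and 11 lower in LVW cells, and 2 higher and 8 lower in SC cells. Groups did not overlap for 14 members in LVW cells (51.1% of all genes) and for 15 in SC cells (57.2% of all genes). Both comparisons share the radial glia arrays.

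Igf2 encodes insulin-like growth factor 2, the main fetal growth factor of the IGF family. Its signals were 7.19, 8.59 and 4.81 in SC cells and 4.62, 5.73 and 6.03 in LVW cells, against 14.09, 14.16 and 14.04 in radial glia. The 3 radial glia arrays stood far above every adult array without overlap, and near the top of the scale, which ended at 14.6 on every array. The difference was -7.23 ± 0.91 in SC cells (adjusted p = 9.22e-05) and -8.63 ± 0.91 in LVW cells (adjusted p = 2.1e-05). Igf2 was still detected on 2 SC arrays and 1 LVW array.

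Dlk1 encodes a membrane protein of the Delta-Notch type made by many fetal progenitors. It had signals of 4.66, 4.67 and 4.73 in SC cells and 4.85, 4.72 and 6.55 in LVW cells, against 14.13, 14.02 and 13.98 in radial glia. The groups did not overlap, and the adult level was at the bottom of the scale on all arrays but LVW replicate 3. Its change was -9.35 ± 0.56 in SC cells (adjusted p = 2.42e-07) and -8.67 ± 0.56 in LVW cells (adjusted p = 4.63e-07). These differences run between arrays below detection and arrays near the top of the scale, so their sizes are not exact. A second probe for the same transcript was detected on all 12 arrays and gave smaller changes, -5.5 ± 0.31 in SC cells and -5.27 ± 0.31 in LVW cells, called in both.

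Mest, which encodes an enzyme of the alpha/beta hydrolase fold, was not detected on any adult ependymal array. Its signals were 4.71, 4.78 and 4.66 in SC cells and 4.67, 4.77 and 4.71 in LVW cells, against 12.88, 12.34 and 12.66 in radial glia. Where no array of a group detected a gene, a fold is given as a bound: the other group's mean is set against the faintest signal that passed detection on each array, or against the probe itself where that is brighter. On that basis Mest was at least 102-fold lower in SC cells (adjusted p = 5.14e-09) and at least 108-fold lower in LVW cells (adjusted p = 4.39e-09).

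Slc38a4, a neutral amino acid transporter best known from placenta and liver, was detected only on the radial glia arrays. It gave 4.7, 4.74 and 4.74 in SC cells and 4.68, 4.61 and 4.6 in LVW cells, against 8.45, 7.73 and 8.69 in radial glia. The groups did not overlap, and the gene was at least 5.05-fold lower in SC cells (adjusted p = 2.56e-06) and at least 5.36-fold lower in LVW cells (adjusted p = 1.91e-06). Slc38a4 passed the filter through the radial glia arrays alone, so these values are a description. It was not tested when any radial glia array was left out, because too few arrays then detected it.

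Rtl1, a retrotransposon-derived neighbour of Dlk1 needed in the placenta, was called lower in LVW cells and not in SC cells. Its signals were 6.55, 4.62 and 7.51 in SC cells and 4.6, 5.11 and 4.62 in LVW cells, against 7.2, 6.61 and 6.49 in radial glia. SC cells overlapped radial glia, with a difference of -0.54 ± 0.58 (adjusted p = 0.517), while LVW cells did not detect the gene and lay below them, at least 1.87-fold lower (-1.99 ± 0.58, adjusted p = 0.0187). The LVW call was lost without radial glia replicate 1 (adjusted p = 0.0752), and the direct difference of SC from LVW cells was not called (1.45 ± 0.58, adjusted p = 0.166).

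Mkrn3, a makorin RING finger protein known as a brake on puberty, had signals of 4.72, 6.79 and 6.08 in SC cells and 4.77, 4.61 and 6.43 in LVW cells, against 7.45, 8.46 and 7.72 in radial glia. Neither adult group overlapped radial glia. The change was called in LVW cells (-2.61 ± 0.76, adjusted p = 0.0195) and missed the threshold in SC cells (-2.01 ± 0.76, adjusted p = 0.0657). The SC change was called without LVW replicate 3 (adjusted p = 0.0492) or neurosphere replicate 3 (0.0225). The LVW call was lost when LVW replicate 1 (adjusted p = 0.0625), LVW replicate 2 (0.065) or radial glia replicate 2 (0.0727) was left out.

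The other direction was seen for 3 paternally expressed members. Nnat encodes neuronatin, a small membrane protein of the developing nervous system and of endocrine cells. Its signals were 11.93, 12.16 and 11.64 in SC cells and 11.32, 11.63 and 10.8 in LVW cells, against 9.59, 8.67 and 9.39 in radial glia. Every adult array lay above every radial glia array, by 2.69 ± 0.34 in SC cells (adjusted p = 8.42e-05) and 2.03 ± 0.34 in LVW cells (adjusted p = 0.000597). A second Nnat probe was called higher in both, and the remaining kept probe was called higher in SC cells (2.71 ± 0.66) but not in LVW cells (1.85 ± 0.66, adjusted p = 0.0512 over probes).

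Nap1l5, an intronless gene related to nucleosome assembly protein 1, was not detected in radial glia. Its signals were 9.21, 8.97 and 9.61 in SC cells and 6.65, 7.04 and 8.04 in LVW cells, against 4.83, 5.67 and 5.03 in radial glia. The 3 groups followed each other without overlap. Nap1l5 was at least 12.8-fold higher in SC cells (adjusted p = 0.00019) and at least 3.14-fold higher in LVW cells (adjusted p = 0.0139) than in radial glia. The LVW call was lost in the authors' processed values (0.9, adjusted p = 0.112), without LVW replicate 3 (adjusted p = 0.0503) and without radial glia replicate 1 (adjusted p = 0.0573).

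Impact, an inhibitor of the kinase GCN2 that is abundant in neurons, had signals of 10.04, 9.31 and 9.7 in SC cells and 9.5, 9.67 and 10.45 in LVW cells, against 8.5, 8.41 and 8.01 in radial glia. The groups did not overlap, and both changes were called, at 1.37 ± 0.44 in SC cells (adjusted p = 0.0331) and 1.56 ± 0.44 in LVW cells (adjusted p = 0.0161). A second probe for the same transcript had the opposite sign, with -0.6 ± 0.56 in SC cells and -0.62 ± 0.56 in LVW cells, and was not called. That probe was undetected on every adult array and detected on 1 radial glia array, so its differences run mostly between arrays below detection. With the probes averaged, neither change was called, at 0.38 in SC cells (adjusted p = 0.445) and 0.47 in LVW cells (adjusted p = 0.322). Leaving out SC replicate 1 or 3 or any radial glia array ended the SC call (adjusted p up to 0.116), and leaving out LVW replicate 3 (0.0524) or radial glia replicate 3 (0.0645) ended the LVW call.

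Among maternally expressed members, 1 of 5 tested was called lower in SC cells, beside 17% of all genes. In LVW cells 2 of 5 were called lower, beside 19.7% of all genes. None was called higher, beside 14.8% of all genes in SC cells and 16.7% in LVW cells. Cdkn1c encodes p57, an inhibitor of cyclin-dependent kinases that holds cells out of division. Its signals were 8.43, 10.57 and 7.15 in SC cells and 10.49, 9.8 and 11.1 in LVW cells, against 14.02, 14.04 and 14.27 in radial glia. All adult arrays detected it, and none reached the radial glia level, with a change of -5.4 ± 0.71 in SC cells (adjusted p = 0.000127) and -3.65 ± 0.71 in LVW cells (adjusted p = 0.00179).

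Dcn encodes decorin, a proteoglycan of connective tissue that is imprinted in mouse placenta. Its signals were 8.52, 7.08 and 8.94 in SC cells and 4.67, 4.61 and 4.64 in LVW cells, against 8.56, 7.86 and 7.75 in radial glia. These values rest on 1 kept probe of 5. Another Dcn probe was detected on SC replicate 3 alone, and the rest on no array. LVW cells did not detect Dcn, and the gene was at least 4.56-fold lower there than in radial glia (adjusted p = 8.41e-05). SC cells overlapped radial glia (0.13 ± 0.43, adjusted p = 0.857). Set against LVW cells directly, SC cells were at least 4.98-fold higher (3.54 ± 0.43, adjusted p = 0.000453).

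Among members whose expressed copy varies, Grb10, an adaptor that dampens insulin and IGF receptor signalling, had signals of 10.31, 9.9 and 10.24 in SC cells and 8.93, 7.69 and 10.18 in LVW cells, against 13.6, 13.98 and 13.7 in radial glia. Radial glia were highest with no overlap, and the change was -3.61 ± 0.64 in SC cells (adjusted p = 0.00113) and -4.83 ± 0.64 in LVW cells (adjusted p = 0.000123). Blcap, the gene whose intron holds Nnat, moved as Nnat did. It had signals of 11.45, 11.45 and 11.17 in SC cells and 10.96, 10.99 and 10.48 in LVW cells, against 9.61, 9.41 and 9.42 in radial glia. The change was 1.88 ± 0.34 in SC cells (adjusted p = 0.00139) and 1.33 ± 0.34 in LVW cells (adjusted p = 0.0102), without overlap. Neither was called with median scaling, at 1.13 in SC cells (adjusted p = 0.15) and 0.92 in LVW cells (adjusted p = 0.25).

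Gnas encodes the stimulatory G protein alpha subunit and several overlapping transcripts read from different copies. The probe with the brightest signal gave 4.62, 4.62 and 4.65 in SC cells and 4.68, 4.64 and 4.72 in LVW cells, against 10.85, 8.55 and 9.82 in radial glia. That probe was detected only in radial glia and was at least 13.8-fold lower in SC cells (adjusted p = 6.22e-06). It passed the filter through the radial glia arrays alone, so its differences are a description. In LVW cells, where another Gnas probe was detected, the measured difference was -5.06 ± 0.46 (adjusted p = 5.96e-06), taken against arrays below detection. Of the other 2 kept Gnas probes, both dim, 1 was called lower in SC cells (-1.34 ± 0.46, adjusted p = 0.0469 over probes) and neither was called in LVW cells. Which transcript the bright probe reads was not settled by the annotation used here. When a radial glia array was left out the dim probes stood for the gene, and the LVW change was not called (adjusted p of 0.214 to 0.687), nor was the SC change without radial glia replicate 1 (0.0578) or 3 (0.12).

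**Figure D2:**
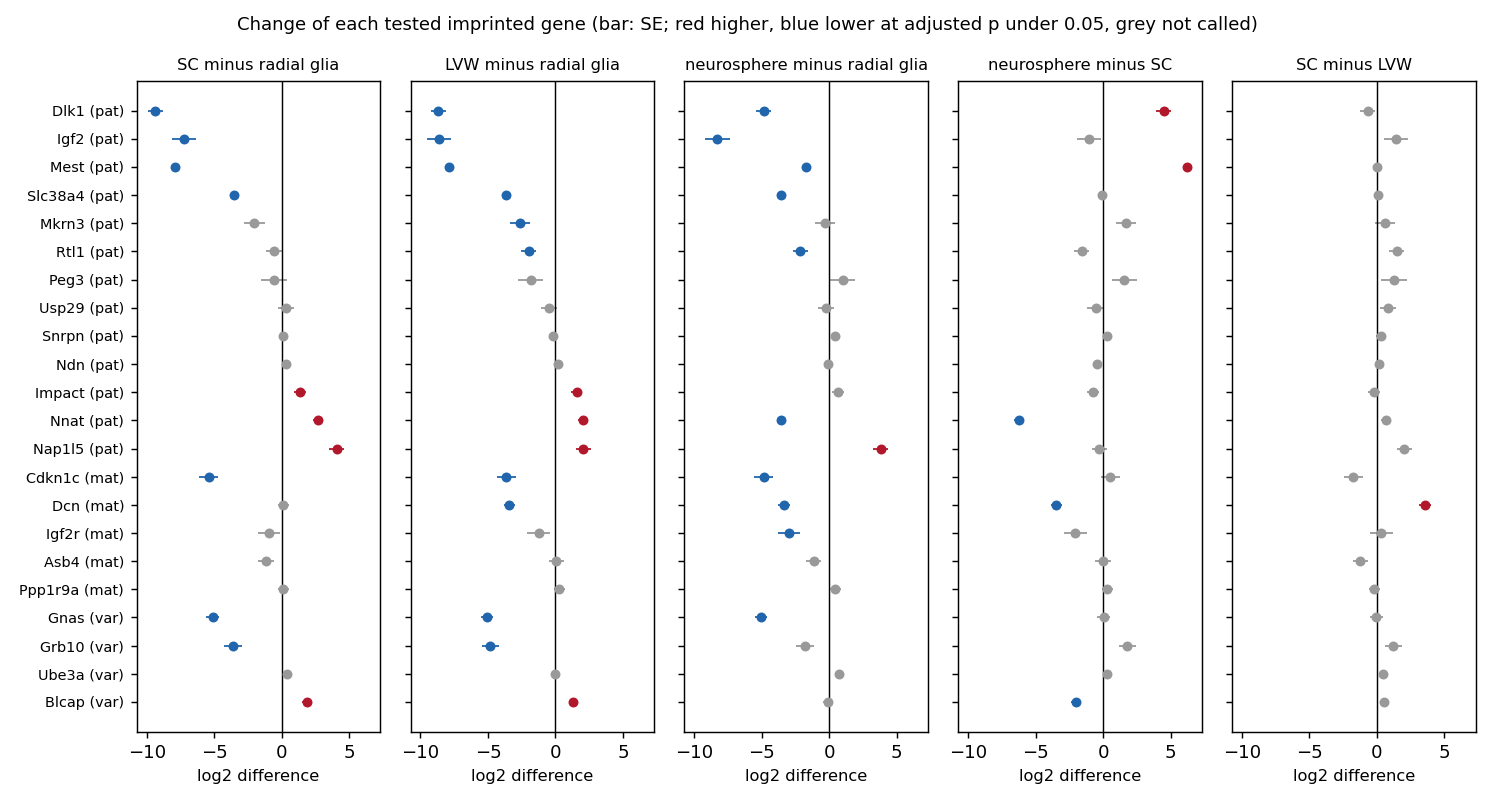
Log2 change of the tested members in the 5 comparisons (1 panel each, titled with its direction), with bars for the standard error, red points for members called higher, blue for lower and grey for not called. Igf2, Dlk1 and Mest show the lowest values in both panels that set adult ependymal cells against radial glia.

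Markers of other cells moved with these genes. Of 8 pericyte and mural markers, 7 were lower in SC cells than in radial glia, beside 17% of all genes. In LVW cells 7 were lower and 1 higher, beside 19.7% and 16.7% of all genes. Kcnj8, Rgs5, Abcc9 and Anpep passed the filter through the radial glia arrays alone, so their part of these counts is a description. All 8 were detected on every radial glia array, whereas 6 were undetected on every SC array and 5 on every LVW array. Kcnj8, a potassium channel gene that marks pericytes, had 12.53, 12.29 and 12.26 in radial glia and was undetected in every other group. Summed linear signals of the list were 7920 to 9350 in SC cells, 17600 to 22700 in LVW cells and 14600 to 23500 in radial glia. Acta2, the marker that was higher in LVW cells, carried most of the sum in both adult groups. It averaged 13.02 in SC cells, 14.21 in LVW cells and 12.05 in radial glia. Of 5 tested fibroblast and meningeal markers (of 8), 3 were lower in SC cells and 3 in LVW cells, with sums of 864 to 1160 in SC cells and 266 to 366 in LVW cells, against 7040 to 10200 in radial glia. Col3a1 of that list was undetected in both adult groups. It passed the filter through the radial glia arrays alone, so its part of these counts is a description.

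Choroid plexus markers were mixed. Of 7 tested (of 8), 4 were lower and 1 higher in SC cells, and 2 were lower and 1 higher in LVW cells, where the list median of -0.14 was close to the -0.19 of all genes. Over all genes, 17% were lower and 14.8% higher in SC cells, and 19.7% and 16.7% in LVW cells. Ttr was undetected in both adult groups and carried most of the sum in radial glia, whereas Folr1, a folate receptor gene, was higher in SC cells (1.63 ± 0.49) and LVW cells (1.46 ± 0.49). Ttr passed the filter through the radial glia arrays alone, so its part of these counts is a description. The list summed to 1190 to 1760 in SC cells and 4040 to 6560 in LVW cells, against 17100 to 23700 in radial glia. Of 5 tested endothelial markers (of 8), 2 were lower in SC cells and 1 in LVW cells. Esam, an adhesion gene, averaged 12.44 in radial glia and carried most of the sum there. It was lower by -5.83 ± 0.53 in SC cells and at least 95.1-fold lower in LVW cells, while Cldn5 (0.09 in SC cells and 1.15 in LVW cells) and Kdr (0.2 and 0.31) were not called. The endothelial list summed to 199 to 418 in SC cells and 181 to 1270 in LVW cells, against 4220 to 7240 in radial glia.

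Neuronal markers were lower for 4 of 8 in SC cells (17% of all genes) and 4 of 8 in LVW cells (19.7% of all genes). None was called higher. The rest were not called, among them Stmn2 in SC cells, which averaged 8.56 there and 7.48 in radial glia. The list summed to 602 to 1090 in SC cells and 238 to 686 in LVW cells, against 3800 to 4040 in radial glia. Neurod2, a transcription factor gene of cortical neurons, was at least 22.3-fold lower in SC cells and at least 23.7-fold lower in LVW cells. It passed the filter through the radial glia arrays alone, so these folds are a description. Myelin markers went the other way, as Nnat and Blcap did, with 3 of 4 tested (of 6) higher in SC cells and 3 of 4 in LVW cells. Over all genes, 14.8% were higher in SC cells and 16.7% in LVW cells. Mbp, the myelin basic protein gene, was higher by 6.77 ± 0.85 in SC cells and 6.94 ± 0.85 in LVW cells. The myelin list summed to 1540 to 17100 in SC cells and 4850 to 12400 in LVW cells, against 167 to 223 in radial glia. All 4 tested cycling markers (of 6) were lower in both adult groups, beside 17% of all genes in SC cells and 19.7% in LVW cells. Their sums were 559 to 1050 in SC cells and 107 to 238 in LVW cells, against 10800 to 11400 in radial glia. None of 2 tested erythroid markers was called, and none of 7 microglial and leukocyte markers passed the filter. The part of these cells and of division in the changes of the members was not tested.

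Between the adult ependymal groups, 1 of 22 tested members was called, beside 8.04% of all tested genes (3.09% higher and 4.96% lower). This was Dcn, higher in SC cells than in LVW cells, as described above. The median change of the members was 0.37, against 0.05 over all genes. The count was 2 without LVW replicate 3 or neurosphere replicate 2 or 3, where Nap1l5 was added, and 3 without SC replicate 2. Fbln1, a fibroblast marker that encodes the matrix protein fibulin 1, was also higher in SC cells (3.88 ± 0.54, adjusted p = 0.00116), and its part in the Dcn difference was not tested. Col1a2, Col3a1 and Pdgfra of the same list were undetected in SC cells. Of the other lists, 3 of 7 choroid plexus markers and 1 radial glial marker were lower in SC cells, and 1 neuronal, 1 cycling and 1 radial glial marker were higher.

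Nap1l5 came nearest to the threshold after Dcn, with 2.02 ± 0.57 more signal in SC cells than in LVW cells and no overlap (adjusted p = 0.0506). Cdkn1c (-1.75 ± 0.71), Rtl1 (1.45 ± 0.58), Igf2 (1.4 ± 0.91) and Grb10 (1.22 ± 0.64) overlapped between the regions and were not called. Without SC replicate 2, Cdkn1c and Rtl1 were called, at -2.68 and 2.26. In all, 8 members did not overlap between the regions, beside 26.5% of all genes.

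Mest and the main Dlk1 probe were higher in neurospheres than in the SC ependymal cells they were grown from, while Nnat, Blcap and Dcn were lower. Of 22 tested members, 5 were called against SC cells, 2 higher and 3 lower, beside 15.5% of all genes called higher and 14.7% called lower (30.2% in all). The median change was -0.03 for members and 0.08 for all genes, and with median scaling 3 members were higher and 2 lower.

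Mest gave 10.61, 11.21 and 10.96 in neurospheres, and it was undetected in SC cells. Every neurosphere array lay above every SC array, and the group mean was at least 31.4-fold higher (6.21 ± 0.27, adjusted p = 3.71e-08). Dlk1 gave 10.42, 8.68 and 8.41 in neurospheres, against 4.66, 4.67 and 4.73 in SC cells, without overlap. The difference was 4.48 ± 0.56 (adjusted p = 0.000107), but the second Dlk1 probe changed by 0.44 ± 0.31 and was not called (adjusted p = 0.325 over probes). Without background correction that second probe stood for Dlk1, and its change of 0.55 was not called (adjusted p = 0.245). Igf2 did not follow them. It had 7.59, 5.13 and 4.7 in neurospheres, against 7.19, 8.59 and 4.81 in SC cells, with detection on 1 neurosphere array and 2 SC arrays, and a change of -1.06 ± 0.91 (adjusted p = 0.419).

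Nnat, high in adult ependymal cells, had 5.88, 5.59 and 5.51 in neurospheres, against 11.93, 12.16 and 11.64 in SC cells. The gap was far wider than the spread of either group (-6.25 ± 0.34, adjusted p = 1.19e-07), and both other kept probes of Nnat were also called lower, by -4.69 ± 0.26 and -2.91 ± 0.66. Blcap, its host gene, had 9.37, 8.66 and 10 in neurospheres, against 11.45, 11.45 and 11.17 in SC cells. The groups did not overlap, and the change was -2.01 ± 0.34 (adjusted p = 0.00106), or -1.58 with median scaling (adjusted p = 0.0616). Dcn had 4.64, 4.64 and 4.87 in neurospheres, undetected on all 3 arrays, and was at least 5.74-fold lower than in SC cells (adjusted p = 0.000106).

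Nap1l5, also high in SC cells, had 9.19, 10.08 and 7.67 in neurospheres, against 9.21, 8.97 and 9.61 in SC cells, and the groups overlapped (-0.28 ± 0.57, adjusted p = 0.755). Grb10 had 12.04, 13.09 and 10.71 in neurospheres, against 10.31, 9.9 and 10.24 in SC cells, without overlap, and missed the threshold (1.79 ± 0.64, adjusted p = 0.0544). Without neurosphere replicate 3, the array that stood apart, Grb10 was called (2.41, adjusted p = 0.0119), as were Mkrn3 (2.49, adjusted p = 0.0135) and Impact (-1.23, adjusted p = 0.0241). Grb10 was also called without LVW replicate 2 (adjusted p = 0.0287) or 3 (0.0275), Igf2r without LVW replicate 3 (-2.05, adjusted p = 0.0138) and Rtl1 without SC replicate 2 (-2.42, adjusted p = 0.00126). In this comparison 9 members did not overlap, beside 46.6% of all genes. The cycling markers, 4 of 4 tested, were higher in neurospheres, with summed signals of 2850 to 7150 against 559 to 1050 in SC cells, and all 6 tested ependymal markers were lower. Over all genes, 15.5% were higher and 14.7% lower. Of 4 tested myelin markers, 3 were lower in neurospheres, as Nnat and Blcap were, with sums of 293 to 453 against 1540 to 17100 in SC cells. The part of these markers in the members' changes was not tested.

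**Figure D3:**
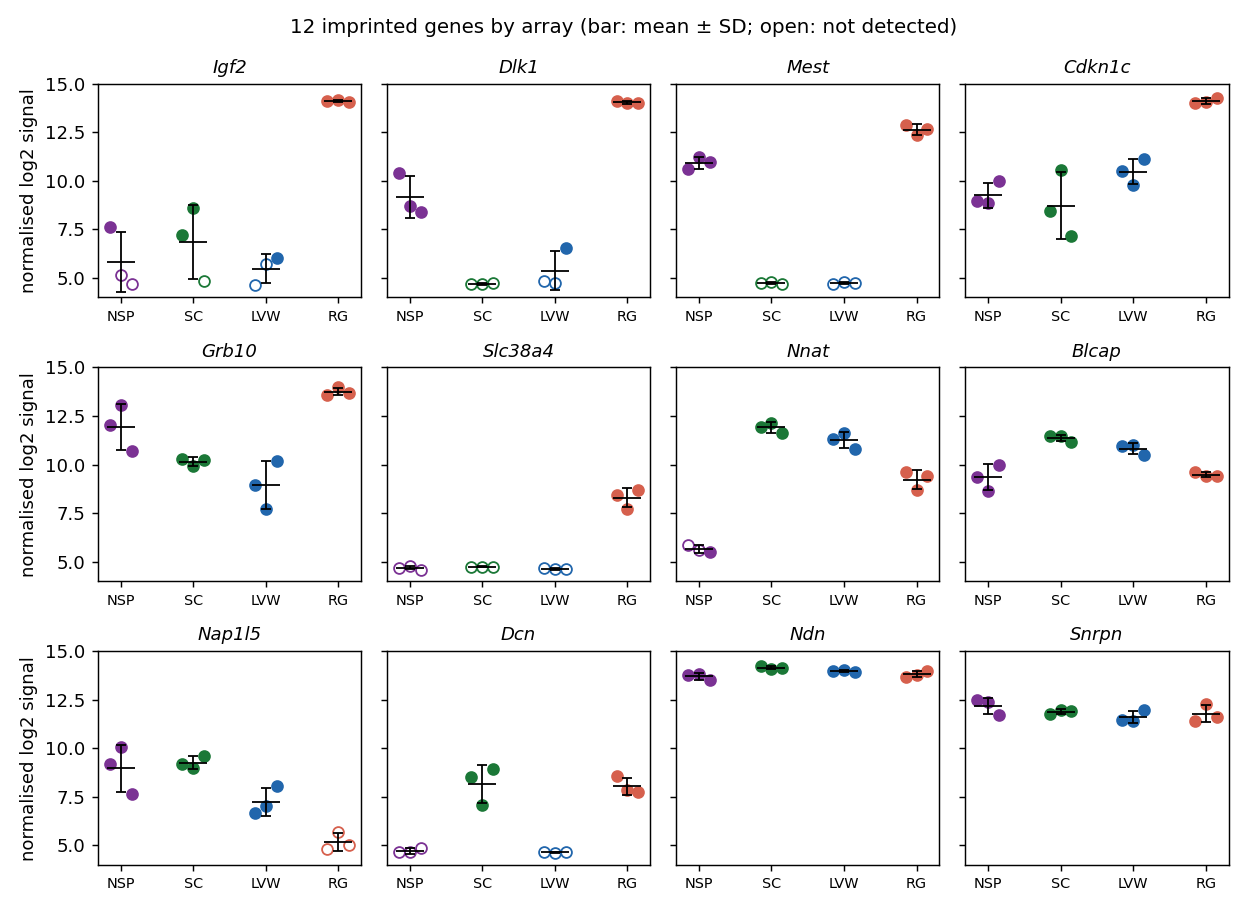
Normalised log2 signal of single arrays for 12 members (points, open where not detected, with bars for the mean ± SD), for neurospheres, SC, LVW and radial glia from left to right. Mest and Dlk1 are high in neurospheres and radial glia, while Igf2 is high in radial glia.

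Igf2, Dlk1, Cdkn1c and other members were lower in neurospheres than in radial glia, and Nap1l5 was higher. In this comparison 11 of 22 tested members were called, beside 20.3% of all tested genes: 10 lower (11.1% of all genes) and 1 higher (9.23% of all genes). The median change was -1.43 for members and -0.05 for all genes. The count and the median again cover only members that passed the filter, Slc38a4 and the bright Gnas probe through the radial glia arrays alone. Groups did not overlap for 14 members, beside 40.7% of all genes. Without radial glia replicate 1 or 3, 7 members were called, when 1147 and 1160 genes were called in place of 1933.

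Igf2 was lower in neurospheres than in radial glia by -8.29 ± 0.91 (adjusted p = 6.12e-05), with no overlap. By its main probe, Dlk1 was intermediate, between radial glia and SC cells, at -4.87 ± 0.56 (adjusted p = 8.98e-05). Its second probe was called lower than radial glia as well (-5.06 ± 0.31), but did not separate neurospheres from SC cells (0.44 ± 0.31, not called). Mest, detected on all arrays of both groups, was lower by -1.7 ± 0.27 (adjusted p = 9e-04), and was not called without background correction (adjusted p = 0.09).

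Cdkn1c gave 8.93, 8.83 and 9.99 in neurospheres, against 14.02, 14.04 and 14.27 in radial glia. The groups did not overlap and the change was -4.86 ± 0.71 (adjusted p = 0.000514). Nnat, already lower in radial glia than in the adult cells, was lower still in neurospheres (-3.56 ± 0.34, adjusted p = 1.75e-05), although 1 of its 3 kept probes showed no called change (-0.2 ± 0.66). That probe was undetected on every array of both groups, so it cannot show a difference between them. Dcn was at least 5.26-fold lower (adjusted p = 0.000223), Slc38a4 at least 6.18-fold lower (adjusted p = 4.54e-06), and the bright Gnas probe, undetected in neurospheres, differed by -5.07 ± 0.46 (adjusted p = 1.28e-05). The Gnas call was lost when any radial glia array was left out (adjusted p of 0.091 to 0.262).

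Igf2r encodes the receptor that carries IGF2 to lysosomes for breakdown. It had 5.8, 6.63 and 7.16 in neurospheres, against 10.47, 8.2 and 9.87 in radial glia, with no overlap (-2.98 ± 0.83, adjusted p = 0.0249). The call was lost without radial glia replicate 1 (adjusted p = 0.11) or 3 (0.0887) and without neurosphere replicate 1 (0.106) or 2 (0.0657). In SC cells Igf2r had 8.6, 8.59 and 8.59 and in LVW cells 9.3, 9.39 and 6.09, and neither adult group was called against radial glia. Rtl1 had 4.66, 4.66 and 4.56 in neurospheres, with no detection, and was at least 2.15-fold lower than in radial glia (adjusted p = 0.022). That call was lost when any radial glia array, or neurosphere replicate 1 or 2, was left out (adjusted p of 0.0526 to 0.0974).

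Nap1l5 was the member called higher in neurospheres than in radial glia, at least 10.5-fold (3.81 ± 0.57, adjusted p = 0.000583). Grb10 was not called against radial glia by its main probe (-1.81 ± 0.64, adjusted p = 0.0694), whereas its second probe was (-2.74 ± 0.44, adjusted p = 0.00122 over probes). The main probe was called without LVW replicate 2 (adjusted p = 0.0376) or 3 (0.0348) or neurosphere replicate 2 (0.0301). Of 8 pericyte and mural markers, 6 were lower in neurospheres than in radial glia, beside 11.1% of all genes. Kcnj8, Rgs5, Abcc9, Pdgfrb and Anpep were undetected in neurospheres, and all of these but Pdgfrb passed the filter through the radial glia arrays alone. The list summed to 4290 to 19400 in neurospheres against 14600 to 23500 in radial glia, and its part in these changes was not tested. Acta2, at 14.22, 11.94 and 12.65, carried most of the sum in neurospheres. Ttr was undetected in neurospheres too, and 5 of 7 choroid plexus markers were lower, with a sum of 210 to 304. Of the other lists, 4 of 5 fibroblast, 4 of 8 neuronal, 2 of 4 cycling and 1 of 5 endothelial markers were lower, and 1 neuronal marker was higher. Ttr, Neurod2 and Col3a1 of the fibroblast list also passed the filter through the radial glia arrays alone, so their part of these counts is a description.

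**Figure D4:**
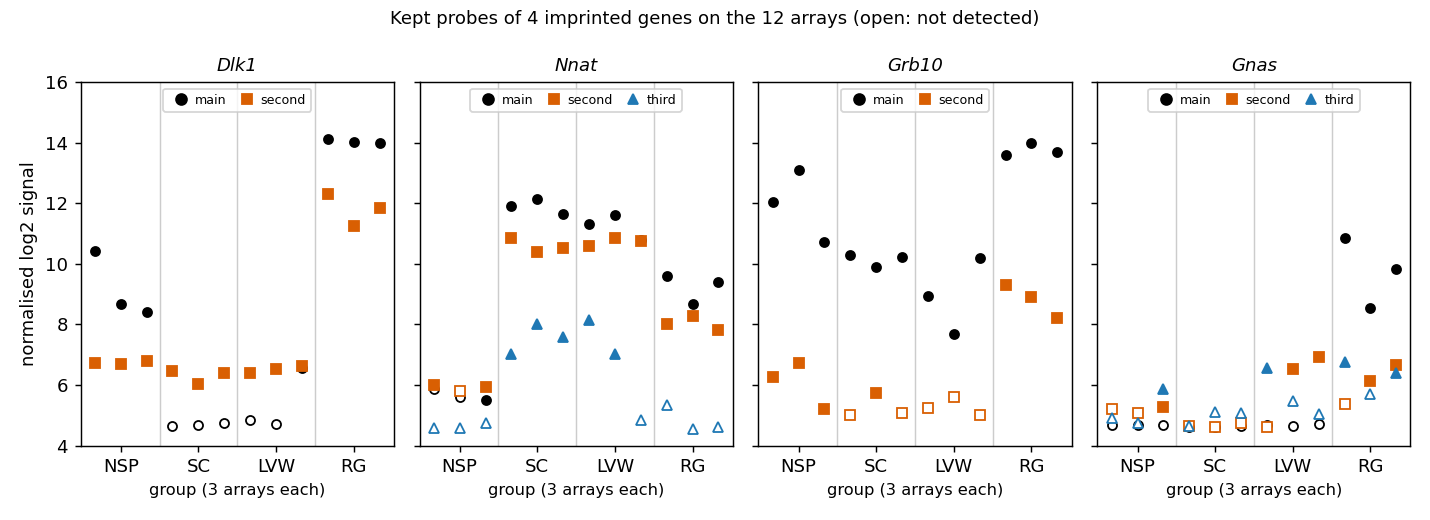
Normalised log2 signal of every kept probe of Dlk1, Nnat, Grb10 and Gnas on the 12 arrays, with open marks where the probe was not detected. The main and second Dlk1 probes are both highest in radial glia but differ in neurospheres, and 1 Gnas probe alone rises above the others in radial glia.

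In the analysis as reported, 7 members were not called in any of the 5 comparisons. Ndn, which encodes necdin, a growth suppressor of neurons, averaged 13.72 ± 0.17 in neurospheres, 14.16 ± 0.09 in SC cells, 13.98 ± 0.04 in LVW cells and 13.82 ± 0.16 in radial glia. These levels lie near the top of the scale, where differences may be compressed. With no filter on dim probes Ndn was called lower in neurospheres than in SC cells (-0.44, adjusted p = 0.0195). Snrpn, the gene of the spliceosomal protein SmN, averaged 12.19 ± 0.42 in neurospheres, 11.89 ± 0.12 in SC cells, 11.61 ± 0.32 in LVW cells and 11.77 ± 0.44 in radial glia, and none of its 3 kept probes was called. Ppp1r9a, the gene of the actin-binding protein neurabin, averaged 10.62 ± 0.28, 10.31 ± 0.39, 10.5 ± 0.82 and 10.2 ± 0.3 in the same order of groups.

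Lower on the scale, Peg3, a zinc finger gene linked to maternal care, ranged from 6.92 to 9.11 in neurospheres, 4.64 to 7.95 in SC cells, 4.62 to 6.79 in LVW cells and 6.06 to 7.98 in radial glia. Its spread within groups was wide, and the lowest adjusted p of the 5 comparisons was 0.152, but with median scaling it was called lower in LVW cells than in radial glia (-2.48, adjusted p = 0.0221). Usp29, a deubiquitinase gene beside Peg3, ranged from 4.55 to 6.49 over all 12 arrays. Asb4, a SOCS-box gene of endothelial and hypothalamic cells, averaged 5.77 ± 0.09 in radial glia and reached 7.63 on LVW replicate 2, with no detection in neurospheres or SC cells. Without that LVW array Asb4 was called lower than radial glia in neurospheres (-1.16, adjusted p = 0.00561), SC cells (-1.16, adjusted p = 0.00331) and LVW cells (-0.82, adjusted p = 0.0348). Asb4 then passed the filter through the radial glia arrays alone, so these values are a description. The calls in neurospheres and SC cells were also made with array weights, with the 6 arrays alone and without background correction. Ube3a, the ubiquitin ligase gene of Angelman syndrome, averaged 6.24 ± 0.14 in neurospheres and 5.53 ± 0.12 in radial glia, and its change of 0.71 ± 0.25 was not called (adjusted p = 0.0688). It was called under other settings, among them no filter on dim probes (adjusted p = 0.00727) and without neurosphere replicate 3 (0.0376).

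Of the members with a probe that were not tested, Peg10 was detected on 1 neurosphere array, and Phlda2 and Zim1 on 1 radial glia array each. Plagl1, Peg12, Sgce, Ascl2, Mcts2 and Gatm were detected on none. Under looser filters Phlda2, a placental growth restrainer, and Zim1, a zinc finger gene, were called lower than radial glia in all 3 other groups, by small amounts (-0.84 to -1.1). With detection at p under 0.05 both passed through the radial glia arrays alone, so these values are a description. H19, Meg3, Magel2 and Zrsr1 had no named probe and were not analysed here.

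Members that share a domain were not always called alike. In the Dlk1 to Dio3 domain, Dio3, the deiodinase gene that inactivates thyroid hormone, was lower than radial glia in neurospheres (-2.97 ± 0.42, at least 4.14-fold), SC cells (-2.94 ± 0.42, at least 3.38-fold) and LVW cells (-2.32 ± 0.42), as Dlk1 was. The main Dlk1 probe, but not the second, was called higher in neurospheres than in SC cells. Dio3 was undetected in both of these groups. Rtl1 was undetected in neurospheres, and its difference from SC cells was not called (-1.6 ± 0.58, adjusted p = 0.0563). In the Prader-Willi region, Snrpn and Ndn were not called as reported, while Mkrn3 was called lower in LVW cells. Nnat and Blcap were called in the same direction in each of the 3 comparisons that called both. They parted in neurospheres against radial glia, where Nnat was called lower (-3.56 ± 0.34) and Blcap was not called (-0.13 ± 0.34, adjusted p = 0.844).

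A further list of 45 imprinted genes that are not among the 35 had 21 tested members. In neurospheres against SC cells 5 were higher and 3 lower, beside 15.5% and 14.7% of all genes, and the median change was -0.03 against 0.08 over all genes. In neurospheres against radial glia 1 was higher and 2 lower (9.23% and 11.1% of all genes), with a median of -0.49 against -0.05. SC cells had 1 higher and none lower against LVW cells (3.09% and 4.96% of all genes), with a median of 0.06 against 0.05. Against radial glia, SC cells had 3 higher and 6 lower (14.8% and 17% of all genes), with a median of -0.39 against -0.14. LVW cells had none higher and 8 lower against radial glia (16.7% and 19.7% of all genes), with a median of -0.9 against -0.19. Kcnq1 of this list passed the filter through the radial glia arrays alone, so its part of the counts against radial glia is a description. Inpp5f, a phosphoinositide phosphatase gene, was higher in neurospheres than in SC cells (4.59 ± 0.87, adjusted p = 0.00209), and Cobl, an actin nucleator gene, was lower (-2.93 ± 0.61, adjusted p = 0.00352). Axl, a receptor kinase gene, was lower in LVW cells than in radial glia (-5.38 ± 1.12, adjusted p = 0.00294).

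Genes that set or keep imprints were read alongside, with 11 of 18 tested. Against radial glia, 3 were lower in neurospheres (11.1% of all genes were), 5 in SC cells (17% of all genes) and 4 in LVW cells (19.7% of all genes), and none was higher. Against SC cells, 3 were higher in neurospheres (15.5% of all genes) and none lower, and none was called between SC and LVW cells. Dnmt3b, a DNA methyltransferase that adds new methylation, had 8.69, 8.61 and 8.46 in neurospheres, 5.77, 6.68 and 6.4 in SC cells and 4.9, 6.25 and 8.16 in LVW cells, against 10.63, 10.37 and 10.85 in radial glia. Radial glia were highest without overlap, and Dnmt3b was also higher in neurospheres than in SC cells (2.3 ± 0.63, adjusted p = 0.017). Dnmt1, which copies methylation at replication, was lower than radial glia in SC cells (-2.28 ± 0.47, adjusted p = 0.00321) and LVW cells (-2.12 ± 0.47, adjusted p = 0.00443), and so was its partner Uhrf1 (-3.72 ± 0.62 and -2.19 ± 0.62). Trim28, the corepressor that ZFP57 recruits, was lower in neurospheres (-1.92 ± 0.45, adjusted p = 0.0108) and LVW cells (-1.63 ± 0.45, adjusted p = 0.0144). The median change of this list was 1.31 in neurospheres against SC cells, beside 0.08 over all genes. Against radial glia it was -0.97 in neurospheres (-0.05 over all genes), -1.17 in SC cells (-0.14) and -1.14 in LVW cells (-0.19). The cycling markers moved in the same directions, and their part was not tested.

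Partners of IGF2 formed the last list, with 9 of 14 tested. Igf2bp1 and Igf2bp3 encode fetal proteins that bind Igf2 mRNA. Igf2bp1 was at least 15.2-fold lower in neurospheres, 12.4-fold lower in SC cells and 13.2-fold lower in LVW cells than in radial glia, all as lower bounds on the fold. It passed the filter through the radial glia arrays alone, so these folds are a description. Igf2bp3 had 8.01, 9.47 and 5.24 in neurospheres and was undetected in SC cells, against 12.24, 11.95 and 11.57 in radial glia. In LVW cells its main probe was undetected, while another of its probes was detected on 1 array. It was lower than radial glia in neurospheres (-4.34 ± 0.78, adjusted p = 0.00209), yet at least 3.08-fold higher than in SC cells (adjusted p = 0.0144).

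Igfbp3, a secreted protein that binds IGFs, had 11.35, 11.48 and 11.37 in neurospheres and was undetected in every other group. It was at least 43.7-fold higher than in SC cells and at least 56.1-fold higher than in radial glia. It passed the filter through the neurosphere arrays alone, so these bounds are a description. Igfbp4, another IGF-binding protein gene, was also higher in neurospheres than in SC cells (4.37 ± 0.31, adjusted p = 1.1e-06). Over the list, 4 partners were higher and none lower in neurospheres against SC cells, beside 15.5% and 14.7% of all genes. Against radial glia, 2 were higher and 3 lower in neurospheres (9.23% and 11.1% of all genes), 1 higher and 4 lower in SC cells (14.8% and 17%), and none higher and 4 lower in LVW cells (16.7% and 19.7%). In SC against LVW cells 1 was lower (4.96% of all genes). The list's median change was 1.5 in neurospheres against SC cells (0.08 over all genes), and against radial glia 0.22 in neurospheres (-0.05), -1.11 in SC cells (-0.14) and -1.44 in LVW cells (-0.19).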

How the data were processed

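RNA came from 12 samples (4 groups of 3, per the labels independent biological replicates). Biotin labelling followed a 2-round amplification, per the labels' protocols. The submitters' processing notes name BeadStudio and lumi. The deposited raw table gives an intensity and a detection p-value per probe and array, per the file headers. A second deposited table holds log2 values that the authors processed.

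Intensities were corrected with limma 3.58.1 in R 4.3.3 (neqc, offset 16, negative controls inferred from detection p-values), quantile normalised and taken to log2. Of 46632 probes, 29976 had 1 symbol, 10 several and 16646 none. Probes with a detection p under 0.01 on at least 3 arrays were kept (15760), and the kept probe of highest mean stood for a gene. Symbols were updated through RefSeq, and Snurf probes were joined with Snrpn. A 4-group model (lmFit and eBayes, two-sided) gave 5 comparisons, with Benjamini-Hochberg adjustment over 9525 genes. The number of arrays limits the precision. All called members and any list gene among the 4 largest called changes could be named. The members and lists were chosen with earlier results of these data known. Replicate numbers did not pair samples: correlations of deviations were -0.229 to 0.322 for same numbers and -0.304 to 0.289 for others. None of the 66 array pairs was identical. The fit was tested on simulated data. Alternatives were other background corrections, scaling, filters, probe rules, array weights, a replicate block, smaller fits and leaving out each array.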

Additional observations from a re-analysis of the deposited data

Results flagged for a closer look

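Dcn was the member whose change against radial glia differed between the adult groups by a test of the difference itself. The change was 0.13 in SC cells and -3.41 in LVW cells, a difference of 3.54 (limma, adjusted p = 0.000453), with Dcn higher in 3 of 3 SC arrays than in any LVW array. Fbln1 moved the same way, and its part was not tested. The other tested markers of the fibroblast list were not called between SC and LVW cells: Col1a2 (-0.9 ± 0.47), Col3a1 (0.03 ± 0.25), Pdgfra (-0.93 ± 0.89) and Islr (0.44 ± 0.49).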

How the results depend on the processing

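The 42 called changes of members were recomputed under 23 alternatives, which gave 957 values. Of these, 909 kept the call and direction, 48 kept the direction without the call, and none turned round. The lost calls of Gnas when a radial glia array was left out or background was not corrected, and that of Dlk1 without background correction, came with another probe standing for the gene. For 27 changes the call held under every alternative that tested them. The number of members called in SC against LVW cells was 1, and became 2 without background correction, with normexp without controls, with probes averaged and with array weights. In neurospheres against SC cells it was 5, and 9 with array weights. Leaving out 1 array gave ranges of 5 to 8 members in neurospheres against SC cells, 7 to 13 in neurospheres against radial glia, 1 to 3 in SC against LVW cells, 8 to 12 in SC cells against radial glia and 10 to 14 in LVW cells against radial glia. With the replicate number as a block, the counts in that order were 5, 11, 1, 11 and 14, so the block moved none of them. Counts over all genes moved by over 1.5 times in SC against LVW cells, from 766 to 484 with median scaling and 311 with the 6 arrays alone, and in SC cells against radial glia from 3033 to 4969 with array weights. The same held for neurospheres with array weights, from 1933 to 4122 against radial glia. Leaving out 1 array moved the all-gene counts to between 475 (without SC replicate 3) and 995 (without LVW replicate 3) in SC against LVW cells, and to between 1147 (without radial glia replicate 1) and 2827 (without neurosphere replicate 3) in neurospheres against radial glia. Median scaling moved the median of all genes from -0.14 to -0.8 in SC cells against radial glia, from -0.19 to -0.57 in LVW cells against radial glia and from 0.08 to 0.49 in neurospheres against SC cells. The cause of these changes was not tested. Signals near background or near the top of the scale limit the size of a measurable change.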
